A study of Mus musculus with 38 samples.

Results

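The cytosolic ribosomal protein genes were described here as a set of 79 genes across 38 left ventricles. Members were the rows whose symbol has the form of a ribosomal protein name (Rpl or Rps followed by a number, with the paralog endings a, x, y or l, or Rplp followed by a digit) and that held at least 10 counts in at least 8 libraries. Of 29564 rows, 84 had such a symbol and 79 met the count rule, 49 of the large subunit and 30 of the small subunit. The 5 rows that did not were Rpl10l, Rpl39l, Rps12, Rps12l1 and Rps12l2, and all 79 members passed the filter on low counts of the test across genes.

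RNA sequencing was done on 1 left ventricle library per mouse from wild-type C57BL6 mice that the labels list as female. The non_failing group held 8 mice on vehicle without the disease model. In the other groups heart failure with preserved ejection fraction (HFpEF) was modelled with a high-fat diet plus L-NAME, an inhibitor of nitric oxide synthases, followed by vehicle in 8 mice (group HFpEF+Veh), by TYA-018, which inhibits the deacetylase HDAC6, in 11 mice (HFpEF+TYA-018) or by empagliflozin, which inhibits the kidney glucose transporter SGLT2, in 11 mice (HFpEF+SGLT2i). Libraries are named here by group and by the mouse number of the titles, such as V2555. The model acts on the whole animal, and no genotype differed between the groups.

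Each cytosolic ribosome joins a small subunit, which reads the mRNA, to a large subunit, which forms the peptide bond, and nearly every ribosomal protein is present as a single copy per particle. Cells therefore tend to make these proteins in step, largely by controlling the translation of their mRNAs, many of which start with a run of pyrimidines (the 5′ terminal oligopyrimidine motif) that mTOR signalling acts on. In the adult heart, ribosome production is known to rise with growth of the myocyte, and heart and skeletal muscle also express Rpl3l, a striated muscle paralog of Rpl3.

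The libraries held 21.5 to 59.3 M counts (M for mega), with a median of 29.5 M. The cardiomyocyte markers Myh6, Actc1, Tnnt2, Tnni3, Myl2, Pln, Ryr2 and Actn2 were above 0 in every library, and in transcripts-per-million (TPM) units Myl2 lay between 6926 and 13359. In these bulk samples, fewer cells of a type and less RNA per cell cannot be told apart. Library V2523 of HFpEF+Veh held 1014 TPM of summed hepatocyte markers against 2.3 to 28.9 TPM in the other libraries of its group. The same 7 markers summed to 19.3 to 264 TPM in non_failing, 1.66 to 3.50 TPM in HFpEF+TYA-018 and 2.01 to 8.31 TPM in HFpEF+SGLT2i. Of these, Apoa2, Ttr and Ahsg were above 0 in every library. Alb was at 0 in 1 library, Apoa1 in 2, Serpina1c in 6 and Fgb in 8. Library V2555 of HFpEF+TYA-018 held the highest ribosomal protein share of all 38 libraries.

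RefSeq promoters (GRCm38.p6, 250 bases before to 50 bases from the start) were found for 58 of the 79 members. The sequences of Rps2 and Rplp0, which passed the test below, are shown with those of Rpl22l1, which had the longest pyrimidine run of the 6 extracted, and of Rpl3l and Rpl7l1, the members that followed the rest of the set least once near-identical copies were added to each member. They were chosen after the values had been seen. Each runs 5′ to 3′ from 60 bases before the annotated start through 30 bases from it, and the capitals mark the longest run of C and T between 10 bases before and 20 bases after the start.
Rps2, chr17:24720003-24720092, plus strand: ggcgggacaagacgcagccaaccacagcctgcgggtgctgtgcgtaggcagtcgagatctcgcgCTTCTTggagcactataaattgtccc
Rplp0, chr5:115559407-115559496, plus strand: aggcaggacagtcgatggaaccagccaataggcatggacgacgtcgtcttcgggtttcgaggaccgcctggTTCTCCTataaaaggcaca
Rpl22l1, chr3:28805448-28805537, plus strand: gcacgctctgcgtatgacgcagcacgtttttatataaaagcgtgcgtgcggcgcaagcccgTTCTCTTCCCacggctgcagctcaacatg
Rpl3l, chr17:24727766-24727855, plus strand: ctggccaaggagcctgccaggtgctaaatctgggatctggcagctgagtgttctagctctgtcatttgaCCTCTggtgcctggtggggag
Rpl7l1, chr17:46782627-46782716, minus strand: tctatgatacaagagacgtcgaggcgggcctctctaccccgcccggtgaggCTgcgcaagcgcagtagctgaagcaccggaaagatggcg

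The capital run was 6 bases in Rps2, 7 in Rplp0, 10 in Rpl22l1, 5 in Rpl3l and 2 in Rpl7l1. Around the annotated start, 33 of 58 members (56.9%) held at least 6 consecutive C or T, against 32.4% of 68 mitochondrial ribosomal protein genes and 28.6% of 27025 genes with a promoter. A run of at least 8 was found in 20 members (34.5%), against 8.82% of the mitochondrial set and 11.2% of all genes. Searched in the same window on the gene's own strand, CTTTC was found in 13 members (22.4%), in 0 of 68 mitochondrial ribosomal protein genes and in 3.66% of all genes. The letters CCGGAAG, searched over the whole promoter on both strands, were found in 22 members (37.9%), in 35.3% of the mitochondrial set and in 9.12% of all genes. A match describes these letters in these windows and is not evidence of a site in use.

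As one quantity per mouse, the summed level of the 79 members was taken as a percentage of TPM, in which reads are divided by transcript length and scaled within a library. In non_failing hearts the lowest share was 2.06%, the median 2.25% and the highest 2.73%. In HFpEF+Veh these were 1.89%, 2.61% and 3.27%. In HFpEF+TYA-018 they were 2.11%, 2.33% and 3.47%, and in HFpEF+SGLT2i they were 2.08%, 2.26% and 2.58%. The ranges of all 4 groups overlapped, and HFpEF+Veh and HFpEF+TYA-018 were the widest.

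**Figure D1:**
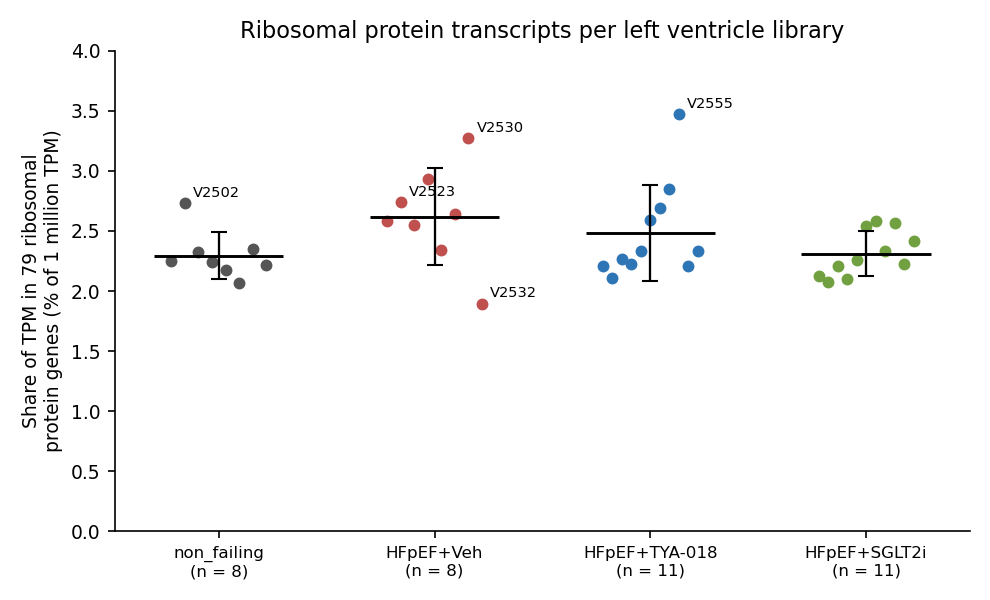
Share of TPM in the 79 cytosolic ribosomal protein genes (%, vertical axis) by group, with 1 point per library and the mean and SD of each group. The highest point is V2555 of HFpEF+TYA-018 at 3.47% and the lowest is V2532 of HFpEF+Veh at 1.89%, and the ranges of the groups overlap.

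The mean share of the 8 non_failing libraries was 2.30% ± 0.20 (SD) and that of the 8 HFpEF+Veh libraries 2.62% ± 0.40. It was 2.48% ± 0.40 over the 11 libraries given TYA-018 and 2.31% ± 0.19 over the 11 given empagliflozin. Without V2523 the HFpEF+Veh mean was 2.60% ± 0.43 (SD, n = 7). Without V2555 the HFpEF+TYA-018 mean was 2.38% ± 0.24 (SD, n = 10) with a highest value of 2.85%. The distance between the highest and the lowest group mean was smaller than the SD of HFpEF+Veh with all libraries. Without V2532 the HFpEF+Veh mean was 2.72% ± 0.30 (SD, n = 7), and its distance from the non_failing mean was larger than that SD.

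In single mice nearly all members lay above or below the group together. In V2555, 78 of 79 members lay above their group mean, with a median deviation of 0.61 on the log2 scale of counts-per-million (CPM). In V2530 of HFpEF+Veh, which had a share of 3.27%, 74 members lay above it, with a median of 0.32. In V2532 of the same group 4 of 79 lay above it, with a median of -0.55. V2523, by contrast, had a share of 2.74% and a median deviation of 0.03, with 46 members above the mean.

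V2555 also stood apart in its macrophage sum. The 5 macrophage markers held in the tables (of 6 listed) summed to 113 TPM there, the highest of the 38 libraries, and to 43.0 to 83.3 TPM in the other libraries of its group. Their summed level ranged from 44.1 to 78.3 TPM in non_failing, from 60.04 to 107 TPM in HFpEF+Veh and from 55.2 to 98.1 TPM in HFpEF+SGLT2i, and none of the 5 was at 0 in any library. C1qa, a complement component made by macrophages, was 84.3 TPM in V2555 against a median of 44.7 TPM over all libraries, whereas the scavenger receptor Cd163 was 0.6 TPM there against a median of 1.2 TPM. C1qa thus made up most of the sum. Cd68 (8.06 TPM), Csf1r (7.76 TPM) and Mrc1 (12.6 TPM) lay above their medians in V2555 but below their highest values of 11.5, 8.71 and 17.0 TPM. The cardiomyocyte sum did not set V2555 apart. It was 20265 TPM there, the lowest of its group, with V2559 at 20443 TPM and V2570 at 20648 TPM. Lower sums were found in V2530 of HFpEF+Veh (20194 TPM) and in V2571 (15539 TPM) and V2572 (17917 TPM) of HFpEF+SGLT2i. Across libraries the ribosomal protein share and the macrophage sum had a Pearson r of 0.68 (n = 38, a description of values from the same libraries) and an r of 0.46 without the 2 libraries with the farthest macrophage sums. Within groups r was 0.55 in non_failing, 0.65 with vehicle, 0.72 with TYA-018 and 0.54 with empagliflozin. Without the 2 farthest libraries of each group these became 0.05, 0.45, -0.05 and 0.31. The part of these cells in the ribosomal protein values was not tested.

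Compared per length, the members' own rows spanned more than 2 orders of magnitude in level. A row is not always the whole of a member. For Rpl12 it held 5.57%, and for Rpl5 6.51%, of the counts of the member and its near-identical copies. Rps29, a small zinc-binding protein of the small subunit, was the highest with a mean of 1068 TPM over all libraries. Rplp1, an acidic protein of the lateral stalk, followed with 1027 TPM, and Rps2, which lies near the mRNA entry channel of the small subunit, with 824 TPM. Among the low members were Rpl7l1 with 8.14 TPM and Rps25, a small subunit protein, with 8.15 TPM. Rps29 and Rplp1 did not differ beyond their spread, with 1146 ± 192 TPM and 1136 ± 213 TPM (SD, n = 8) in HFpEF+Veh.

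The stalk genes, whose products recruit the translation factors, were led by Rplp1 in every group. Rplp1 was 939 ± 105 TPM in non_failing (SD, n = 8), while Rplp2 was 379 ± 38.9 TPM and Rplp0, the protein that anchors the stalk, was 361 ± 24.4 TPM. Rplp2 and Rplp0 lay within 1 SD of each other in each group. Of the genes for the 5S particle, whose free proteins bind Mdm2, Rpl11 was 147 ± 14.2 TPM in non_failing and Rpl5 was 15.0 ± 2.69 TPM. Rpl5's own row held 6.51% of the counts of Rpl5 and its near-identical copies, and Rpl11's 54.7%. With copies added to each, Rpl5 was 289 ± 16.1 TPM and Rpl11 was 367 ± 35.4 TPM.

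Among mice of one group, the median member had an SD of 0.245 in log2 CPM, against 0.268 over all 13765 genes tested and 0.178 over the 77 mitochondrial ribosomal protein genes. The members varied together, with a median pairwise correlation of within-group deviations of 0.81, against 0.55 for the mitochondrial set (a description over 38 libraries that share library and depth). The smallest SDs belonged to the large subunit genes Rpl6 (0.117), Rpl7a (0.122) and Rpl7l1 (0.126). The largest belonged to Rps27 (3.50), Rps7 (0.67) and Rpl10a (0.45). With the counts of near-identical copies added to each member, an alternative chosen after seeing the data, the SD was 0.319 for Rps27, 0.212 for Rps7 and 0.231 for Rpl10a.

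Spread went with length. Over the 64 members with more than 90% of their family's counts in their own row, SD and effective length had a Spearman correlation of -0.53, and the median SD was 0.290 in the 21 shortest members, 0.214 in the 21 of middle length and 0.184 in the 22 longest. The median correlation of a member with the others, with copies added, rose from -0.24 to 0.92 for Rps27 and from -0.46 to 0.55 for Rps7. It was -0.13 for Rpl7l1, a nucleolar relative of Rpl7 that acts in assembly of the large subunit, and 0.11 for Rpl3l, and neither had a copy with counts to add. The ribosomal protein share and the members' own effective length had an r of -0.64 over the 38 libraries, and the part of RNA fragment length in the share was not tested.

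The first comparison asked how the diet and L-NAME model differed from the hearts of non_failing mice. None of the 79 members was called at an adjusted p under 0.05 by edgeR's quasi-likelihood test, against 3.15% of all genes. At an unadjusted p under 0.05 there was 1 member (1.27%) against 15.9% of all genes. DESeq2 and limma on log2 TPM also called 0 members, against 4.35% and 3.11% of all genes. With library size alone 14 members (17.7%) had an unadjusted p under 0.05 against 17.2% of all genes, and with limma 13 (16.7%) against 17.3%. The fitted fold change was above 0 for 70 members and below 0 for 9, against 52.3% of all genes above 0, with a median of 0.10 (quartiles 0.05 and 0.14) against 0.01 over all genes. The median was 0.12 in the small subunit, with 29 of 30 above 0, and 0.08 in the large subunit, with 41 of 49 above 0. With library size alone 78 of 79 members were above 0 with a median of 0.18 against 0.08 over all genes, and with limma 77 of 78 with a median of 0.15 against 0.06. The members' median thus lay 0.09 above that of all genes with TMM scaling, 0.10 with library size alone and 0.09 with limma.

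Markers of several cell types moved in the same comparison. None of the 8 cardiomyocyte markers had a fold change above 0 and Tnnt2, Tnni3 and Myl2 were called lower, with summed levels of 20331 to 29715 TPM in non_failing and 20194 to 24005 TPM in HFpEF+Veh. All 6 fibroblast markers were above 0 and Lum, Postn and Pdgfra were called higher, with summed levels of 167 to 285 TPM in non_failing and 254 to 621 TPM in HFpEF+Veh. All 5 erythroid markers were above 0 with a median of 1.26 and 0 called (5 at an unadjusted p under 0.05), while 4 were called without V2523 and 5 without V2532. Of the other markers, Tnnt3 (2.51) and the atrial gene Bmp10 (2.38) were called higher and Rgs5 (-0.36) lower, with Tnnt3 not called without V2532. The hepatocyte markers had 0 calls, and 6 of 7 called lower without V2523. No cardiomyocyte, fibroblast or erythroid marker was at 0 in any library, and the part of these cells in the ribosomal protein values was not tested.

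The member with the smallest p was Rpl3, which lines the peptidyl transferase centre of the large subunit. Its lowest, median and highest CPM were 127, 160 and 203 in non_failing and 132, 176 and 262 in HFpEF+Veh, so the groups overlapped widely. Its log2 fold change was 0.24 (SE 0.11, adjusted p = 0.254), with 7 of 8 HFpEF+Veh libraries above the non_failing mean. V2532, the library with the lowest share, weighed on this comparison. It also held 57.7 M counts against 25.6 to 34.0 M in the rest of its group, and 53.3 TPM of 6 summed fast skeletal muscle markers against 1.52 to 2.31 TPM. The part of muscle of another kind in its ribosomal protein values was not tested. Without it, a choice made after seeing the data, the median over members was 0.16 and 76 members were above 0. Then 11 members had an unadjusted p under 0.05 (19.5% of all genes did) and 0 were called (4.37% of all genes were).

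Treatment with TYA-018 was compared with vehicle in HFpEF mice. Rps2 was the 1 member of 79 called, and it was higher, against 0.835% of all genes called higher and 1.93% called in either direction. At an unadjusted p under 0.05 there were 4 members (5.06%) against 17.5% of all genes. Rps2 lies at chr17:24718116-24721929 on the plus strand (GENCODE M21, GRCm38). The RefSeq promoter window printed above (chr17:24720003-24720092) lies inside this span, not before the GENCODE start. The Rps2 row held 98.0% of its family's counts. In HFpEF+Veh its lowest, median and highest CPM were 641, 735 and 846. In HFpEF+TYA-018 they were 730, 868 and 1141, and without V2555 the highest was 958. The groups overlapped, with 10 of 11 treated libraries above the HFpEF+Veh mean. Of the cell type markers, 7 of 7 for hepatocytes were called lower with TYA-018 (median -6.45), as was the fast skeletal muscle gene Tnnt3, 1 of 3 tested. Without V2523 the hepatocyte calls were 2 of 7 (Apoa1 and Serpina1c, median over the list -2.55), and without V2532, which held 53.3 TPM of summed fast muscle markers against 1.52 to 2.31 TPM in the rest of its group, none of the 3 was called (median 0.06). Cardiomyocyte markers lay above 0 for 7 of 8 (0 called, 5 at an unadjusted p under 0.05), and 0 of 6 fibroblast and 0 of 6 endothelial markers did (0 called, 2 of each at an unadjusted p under 0.05). Their part in the value of Rps2 was not tested.

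The log2 fold change of Rps2 was 0.26 (SE 0.07, adjusted p = 0.0415 by edgeR's quasi-likelihood test), which was 1.82 times its SD between mice. Without V2555 it was 0.21 with an adjusted p of 0.0809, and without V2532 it was 0.23 with an adjusted p of 0.0844, so the call ended when either library was left out. With the scaling to library size alone it was 0.13 with an adjusted p of 0.271. Under it the all-gene median went from -0.01 to -0.14.

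**Figure D2:**
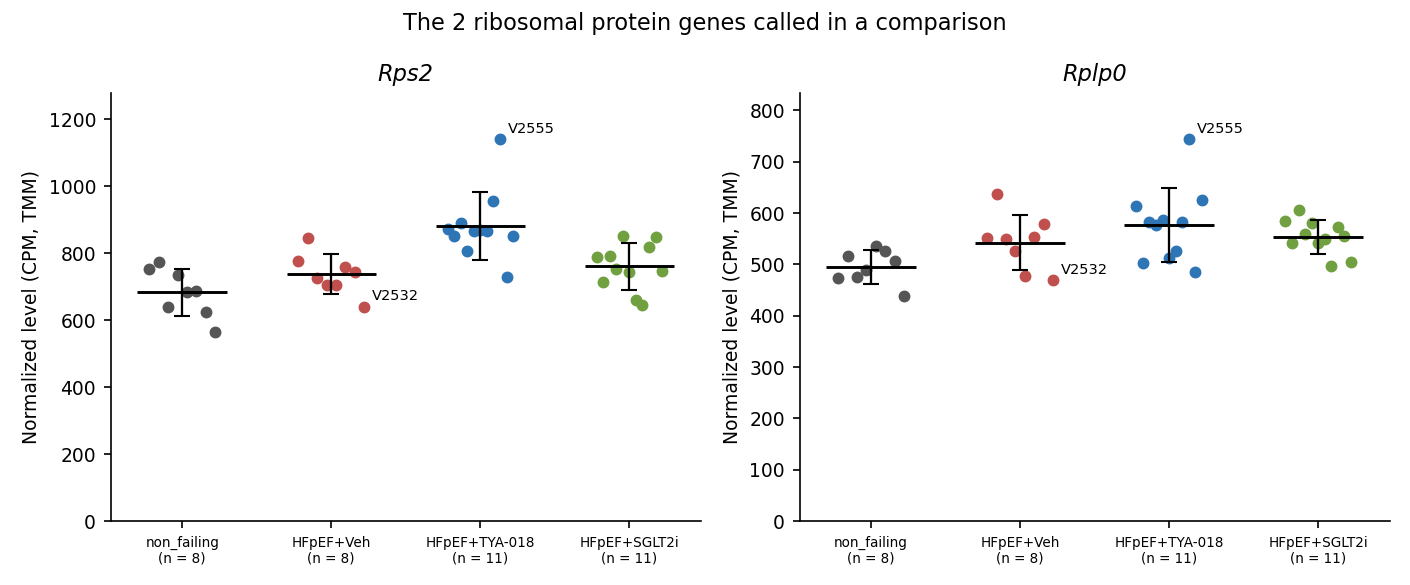
CPM (vertical axes) of Rps2 and Rplp0, the members that passed the test in any comparison, by group, with 1 point per library. Rps2 had a median of 686 CPM in non_failing and 868 CPM in HFpEF+TYA-018, and every pair of groups overlaps.

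For the set as a whole, 66 members had a fold change above 0 and 13 below 0, against 48.2% of all genes above 0, and the median was 0.06 against -0.01. The number above 0 rested on single libraries. Without V2555, 36 of 79 members were above 0 with a median of -0.01, and without V2532, 39 were above 0 with a median of 0.00. With library size alone 7 of 79 were above 0, with a median of -0.07 that lay 0.07 above that of all genes, as it did with TMM scaling, and with limma on log2 TPM 5 of 78 were above 0, with a median 0.01 above that of all genes.

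Rpl3l, the striated muscle paralog, had a fold change of 0.26 (SE 0.09, adjusted p = 0.0919), and Rpl29, a small basic protein of the large subunit, had 0.18 (SE 0.07, adjusted p = 0.178). These values of both genes in this comparison are printed although the naming rule did not select them, and were picked after they had been seen. The lowest, median and highest CPM of Rpl3l were 169, 190 and 231 in HFpEF+Veh and 173, 231 and 269 in HFpEF+TYA-018. Neither gene passed the test.

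The second treated group received empagliflozin, and the comparison with HFpEF+Veh called 0 of 79 members, against 0.85% of all genes. At an unadjusted p under 0.05 edgeR gave 3 members (3.80%) against 10% of all genes. DESeq2 called 0 members against 0.835% of all genes, and limma called 0 members and 0 of 13909 genes (0.0%). With library size alone there were 26 members at an unadjusted p under 0.05 (32.9%) against 13.4% of all genes, with a median of -0.20 against -0.07 over all genes, and with limma 9 (11.5%) against 9.5%. Fold changes were above 0 for 6 members and below 0 for 73, against 51.6% of all genes above 0, with a median of -0.12 against 0.01. The median was -0.12 in both subunits, each with 3 members above 0. Without V2523 the median over members was -0.11, while the share of all genes called fell to 0.0145%. The 5 erythroid markers lay below 0 (median -0.88, 0 called, 5 at an unadjusted p under 0.05). Of 6 fibroblast markers 1 lay above 0 (median -0.22, 0 called, 3 at an unadjusted p under 0.05). Of 8 cardiomyocyte markers 7 lay above 0 (median 0.08, 0 called, 0 at an unadjusted p under 0.05). Hepatocyte markers were called lower for 7 of 7 (median -5.85), and so were the fast skeletal muscle genes Tnnt3 and Tnni2. Without V2523 none of the 7 (median -1.43) nor any fast muscle gene was called, and without V2532 none of the fast muscle genes was (median -0.16). The part of these cells in the members' values was not tested.

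Rpl12, which forms the base of the stalk with Rplp0, had the smallest p. Its CPM was 8.9, 14.1 and 18.8 (lowest, median and highest) in HFpEF+Veh and 8.2, 10.5 and 13.5 in HFpEF+SGLT2i. The ranges overlapped, and 10 of 11 treated libraries lay below the HFpEF+Veh mean. The log2 fold change was -0.40 (SE 0.13, adjusted p = 0.165). Without V2532 it was -0.47 with an adjusted p of 0.0463, the only member called there (1.27% of all genes were), and 27 members then had an unadjusted p under 0.05 (14% of all genes did) with a median of -0.18. The value of Rpl12 refers to 5.57% of its family's counts, since the copy Gm10275 held nearly all of the rest. With the copies added the log2 fold change was -0.15 (SE 0.09, adjusted p = 0.602).

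The treatments were also compared with each other. Of 79 members 77 had a higher fitted level in HFpEF+TYA-018 and 2 a lower one, against 48.4% of all genes above 0. The median was 0.19 (quartiles 0.13 and 0.23) against -0.01 over all genes, at 0.20 in the small and 0.19 in the large subunit. No member was called by edgeR, and neither was any of the 13765 genes (0.0%). At an unadjusted p under 0.05 there were 33 members (41.8%), each higher in HFpEF+TYA-018, against 13.2% of all genes. With library size alone there were 6 (7.59%) against 13.3% of all genes and a median of 0.14 (-0.06 over all genes), and with limma on log2 TPM 3 (3.85%) against 11.1% and a median of 0.09 (-0.04 over all genes). DESeq2 gave 39 (49.4%) against 17.8% of the 10562 genes to which it gave an adjusted p. EdgeR with RLE scaling gave 34 (43.0%) against 13.2% of all genes, and the length offset 29 (36.7%) against 11.9%. DESeq2 called Rpl29 and Rps2 among 185 of 10562 genes with an adjusted p (1.75%). Limma on log2 TPM called 0 members and 0 of 13909 genes (0.0%).

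In Rpl29 the lowest, median and highest CPM were 168, 202 and 264 in HFpEF+TYA-018 and 146, 179 and 201 in HFpEF+SGLT2i. Its log2 fold change was 0.23 (SE 0.07, adjusted p = 0.11 by edgeR), with 10 of 11 HFpEF+TYA-018 libraries above the HFpEF+SGLT2i mean. For Rps2, which the naming rule did not select in this comparison, it was 0.21 (adjusted p = 0.123). The median member had a fold change of 0.79 SD of its spread between mice, and 15 members exceeded 1 SD. These values depended on V2555. Without it the median was 0.12, 74 members were above 0 and 9 had an unadjusted p under 0.05 (10.7% of all genes did), and without both V2555 and V2523 the median was 0.11 with 9 (11.3% of all genes).

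**Figure D3:**
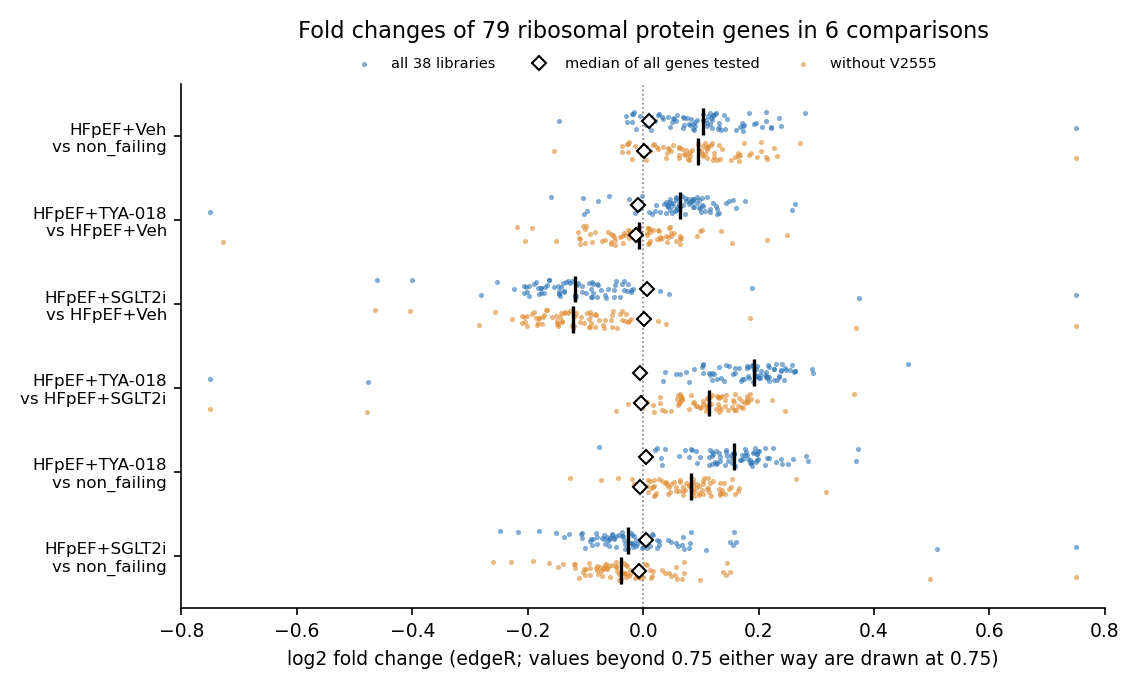
Log2 fold changes of the 79 members (horizontal axis, 1 point per gene) in the 6 comparisons, from all 38 libraries and without V2555, with values beyond 0.75 drawn at the edge. Black bars are the medians of the members and diamonds those of all genes, and in the comparison of the treatments the median falls from 0.19 to 0.12 without V2555.

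Erythroid markers had a median fold change of 0.76 between the treatments, with 5 of 5 above 0 and 0 called (3 at an unadjusted p under 0.05). The 5 erythroid markers (haemoglobin genes and Alas2, none at 0 in any library) summed to 3786 to 8147 TPM in non_failing, 5780 to 41874 TPM in HFpEF+Veh, 4811 to 22934 TPM in HFpEF+TYA-018 and 4720 to 16037 TPM in HFpEF+SGLT2i. Within the groups the ribosomal protein share and the erythroid sum had a Pearson r of 0.32, 0.10, 0.11 and 0.25 in that order (n = 8, 8, 11 and 11, a description), and of 0.78, 0.70, -0.33 and -0.64 without the 2 libraries with the farthest erythroid sums. Between the treatments, cardiomyocyte markers lay above 0 for 7 of 8 (median 0.12) and endothelial markers for 1 of 6 (median -0.19). Each of these lists had 2 genes at an unadjusted p under 0.05. T cell markers lay above 0 for 4 of 4 tested (median 0.37) and B cell markers for 0 of 4 (median -0.51). None of these genes was called. The part of blood cells and of these other cells in the comparisons was not tested.

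Compared with non_failing hearts, HFpEF+TYA-018 hearts had 2 members called, Rps2 and Rplp0, both higher, against 4.0% of all genes called higher and 7.39% in either direction. At an unadjusted p under 0.05 there were 11 members (13.9%) against 22% of all genes. Fold changes were above 0 for 78 of 79 members, against 51.0% of all genes, with a median of 0.16 against 0.01. Without V2555 the median was 0.08 and 74 members were above 0. The median was 0.10 with library size alone, against -0.05 over all genes, and 3 members (3.80%) had an unadjusted p under 0.05, against 21.4% of all genes. With limma the median was 0.09 against -0.02 over all genes, and there were likewise 3 (3.85%), against 18.6%. Of the markers, 7 of 7 for hepatocytes were called lower with TYA-018 than in non_failing and 6 of 7 with empagliflozin. All 5 erythroid markers were above 0 with TYA-018 (median 1.07, 5 at an unadjusted p under 0.05, Hbb-bs called), and Lum of fibroblasts, Bmp10 of the atrium and Acta2 of smooth muscle were called higher and Rgs5 of pericytes lower. With empagliflozin the cardiomyocyte genes Tnnt2, Tnni3 and Myl2 were called lower, and Pdgfra of fibroblasts and Bmp10 higher. The part of these cells in the ribosomal protein values was not tested. This comparison shares its treated mice and its controls with those above, so the fold changes are not separate evidence.

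Rps2 ranged from 565 to 775 CPM in non_failing, with a median of 686, and the ranges overlapped between 730 and 775 CPM. Its log2 fold change was 0.37 (SE 0.07, adjusted p = 0.000633 by edgeR), with 11 of 11 HFpEF+TYA-018 libraries above the non_failing mean. The group means of Rps2 were 683 ± 71.0 CPM in non_failing, 738 ± 60.1 CPM in HFpEF+Veh, 883 ± 102 CPM in HFpEF+TYA-018 and 761 ± 69.0 CPM in HFpEF+SGLT2i (SD). Of the other comparisons of Rps2, looked at after its values had been seen, HFpEF+Veh against non_failing gave 0.11 (adjusted p = 0.491) and HFpEF+SGLT2i against non_failing 0.16 (adjusted p = 0.2).

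Rplp0 lies at chr5:115559467-115563727 on the plus strand (GENCODE M21, GRCm38). Its lowest, median and highest CPM were 438, 497 and 536 in non_failing, 469, 550 and 636 in HFpEF+Veh, 484, 582 and 744 in HFpEF+TYA-018, and 497, 555 and 605 in HFpEF+SGLT2i. Non_failing had the lowest median, and its range overlapped that of each other group. Against non_failing the log2 fold change was 0.22 with TYA-018 (SE 0.07, adjusted p = 0.033, 10 of 11 libraries above the non_failing mean) and 0.16 with empagliflozin (adjusted p = 0.146, 11 of 11). In HFpEF+Veh it was 0.13 (adjusted p = 0.361). Without V2555 the value with TYA-018 was 0.17 with an adjusted p of 0.0848. The call also ended with library size alone (adjusted p = 0.163), without the low-count filter (0.0576), with limma on log2 TPM (0.169), with the length offset (0.0729) and in the fit of these 2 groups (0.0852).

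HFpEF+SGLT2i against non_failing called 0 members, against 6.45% of all genes. At an unadjusted p under 0.05 edgeR gave 2 members (2.53%) against 19.6% of all genes. DESeq2 and limma called 0 members, against 8.2% and 3.75% of all genes. The median was -0.03 against 0.01, with 26 members above 0 and 53 below. In none of the 6 comparisons did any member separate the groups without overlap. Of all genes 0.61%, 0.0363%, 0.0145%, 0.0%, 1.04% and 0.872% did so in the order in which the comparisons are given here, so a count of 0 among 79 is not particular to the members. The fold change of the median member, in units of its SD between mice, was 0.40, 0.30, 0.49, 0.79, 0.67 and 0.24 in the order in which the comparisons are given here.

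Members with related symbols differed in level. Rps4l is annotated as a transcribed processed pseudogene. Rpl3l, with a mean of 142 TPM, was the more abundant of its pair and Rpl3 had 99.5 TPM. Rpl22 had 199 TPM and Rpl22l1 had 40.7 TPM, Rps4x had 276 TPM and Rps4l 26.4 TPM, and Rpl7 had 274 TPM and Rpl7l1 8.14 TPM. Rps27l had 91.5 TPM. Rpl39, which lines the exit tunnel, had 165 TPM, while its paralog Rpl39l, below the count rule, had 0.399 TPM. Rpl10 had 60.7 TPM, and Rpl10l was at 0 counts. The Rpl10 row held 16.02% of the counts of Rpl10 and its near-identical copies. With the copies added, Rpl10 had a mean of 386 TPM in non_failing, 422 TPM in HFpEF+Veh, 385 TPM in HFpEF+TYA-018 and 379 TPM in HFpEF+SGLT2i.

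Rpl3 was 91.3 ± 10.9 TPM (SD) over the 8 non_failing libraries, 115 ± 25.2 TPM over the 8 of HFpEF+Veh, 97.3 ± 7.93 TPM with TYA-018 (11 libraries) and 96.4 ± 15.6 TPM with empagliflozin (11 libraries). Rpl3l was 140 ± 15.99, 139 ± 20.0, 146 ± 20.3 and 141 ± 15.0 TPM in the same order. The Rpl3l to Rpl3 ratio had a median of 1.49 in non_failing, 1.20 in HFpEF+Veh, 1.54 in HFpEF+TYA-018 and 1.57 in HFpEF+SGLT2i. As a mean log2 ratio this was 0.62 ± 0.28, 0.28 ± 0.37, 0.58 ± 0.26 and 0.56 ± 0.32 (SD).

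**Figure D4:**
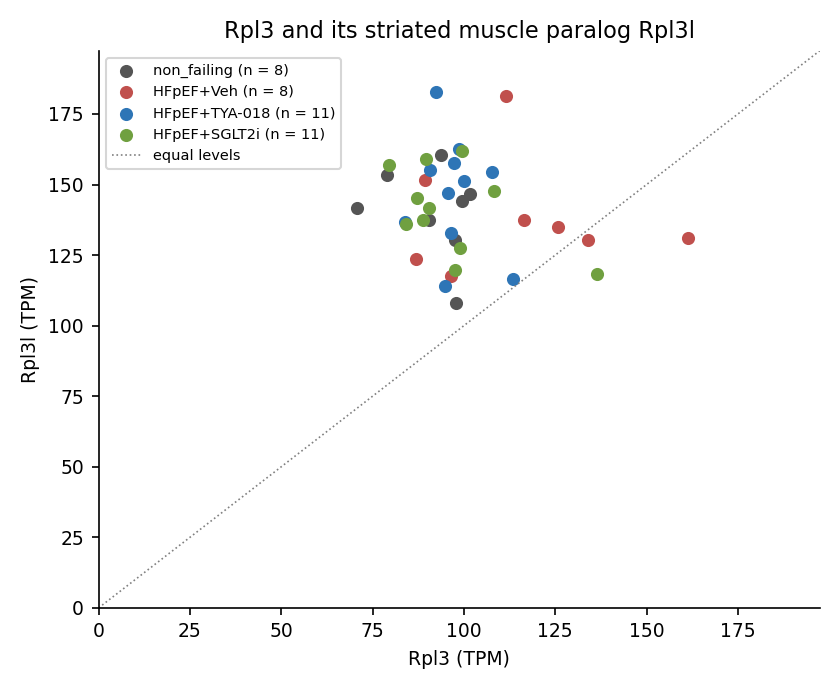
TPM of Rpl3l against TPM of its paralog Rpl3, with 1 point per library and the groups by colour. The HFpEF+Veh libraries had the lowest median ratio, 1.20, and overlap with the other groups.

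The difference of HFpEF+Veh from non_failing was -0.34 in log2 (2-sided exact permutation p = 0.0594, adjusted p = 0.356 over 12 tests of 2 ratios), with 6 of 8 libraries below the non_failing mean. HFpEF+TYA-018 differed from HFpEF+Veh by 0.30 (exact permutation p = 0.0562, adjusted p = 0.356) and HFpEF+SGLT2i by 0.27 (exact permutation p = 0.106, adjusted p = 0.424). None of the 12 passed the threshold, and the ratios were chosen after the levels had been seen. The log2 ratio of Rpl22l1 to Rpl22 was -2.29 in non_failing, -2.34 in HFpEF+Veh, -2.25 in HFpEF+TYA-018 and -2.31 in HFpEF+SGLT2i, with a smallest exact permutation p of 0.145.

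The rows of several members hold only a fraction of the reads their sequence can attract. Other rows that copy a member were counted, and there were 346 for 67 of the 79 members, 218 found by shared sequence among GENCODE M21 transcripts and 128 by a pseudogene symbol built on the member's name, and 29 members had copies with at least 10 counts on average. In 64 members over 90% of the family's counts lay in the member's own row, and in 7 under 50%. The own row held 4.58% for Rps27, 5.57% for Rpl12, 6.51% for Rpl5, 16.02% for Rpl10, 26.8% for Rps7, 30.6% for Rpl35 and 43.6% for Rpl27a. With copies added to each member the called members were the same, namely Rps2 with TYA-018 against HFpEF+Veh, and Rps2 and Rplp0 with TYA-018 against non_failing.

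Rps27, a zinc-binding protein of the small subunit, shows how the split works. Its 252 coding bases are identical to those of Rps27rt, so reads from the coding sequence cannot be told apart by sequence. Coding bases 82 to 171 are shown for both (GRCm38, GENCODE M21, 5′ to 3′ on the coding strand), Rps27 with an intron between its coordinates.
Rps27, chr3:90212989-90213226, minus strand: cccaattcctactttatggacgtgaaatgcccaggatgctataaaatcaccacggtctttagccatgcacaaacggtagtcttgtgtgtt
Rps27rt, chr9:114982537-114982626, minus strand: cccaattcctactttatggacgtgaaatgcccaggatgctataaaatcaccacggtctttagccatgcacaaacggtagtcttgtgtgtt

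The Rps27 row was at 0 in 24 of 38 libraries and reached 537 TPM in V2562 of HFpEF+SGLT2i and 129 TPM in V2532, and its share of the pair's counts ran from 0 to 97.2% by library. Its SE for HFpEF+Veh against non_failing was 1.53 for a log2 fold change of 0.87. The value of the Rps27 row alone is not a level of the pair.

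Rps12, a small subunit protein, fell below the count rule because its own row held 0.06% of its family's counts, nearly all of which lay in Rps12-ps3. The longest identical coding stretch of the pair was 265 bases. The family held 4198 to 12562 counts in 35 libraries and 33.0, 59.3 and 68.4 counts in V2530, V2555 and V2550. In those 3 libraries the family was at 3.82, 4.24 and 6.68 TPM. No other row held here was correspondingly higher in them, and the rows held here add up to 95.1 to 96.5% of the TPM scale.

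**Figure D5:**
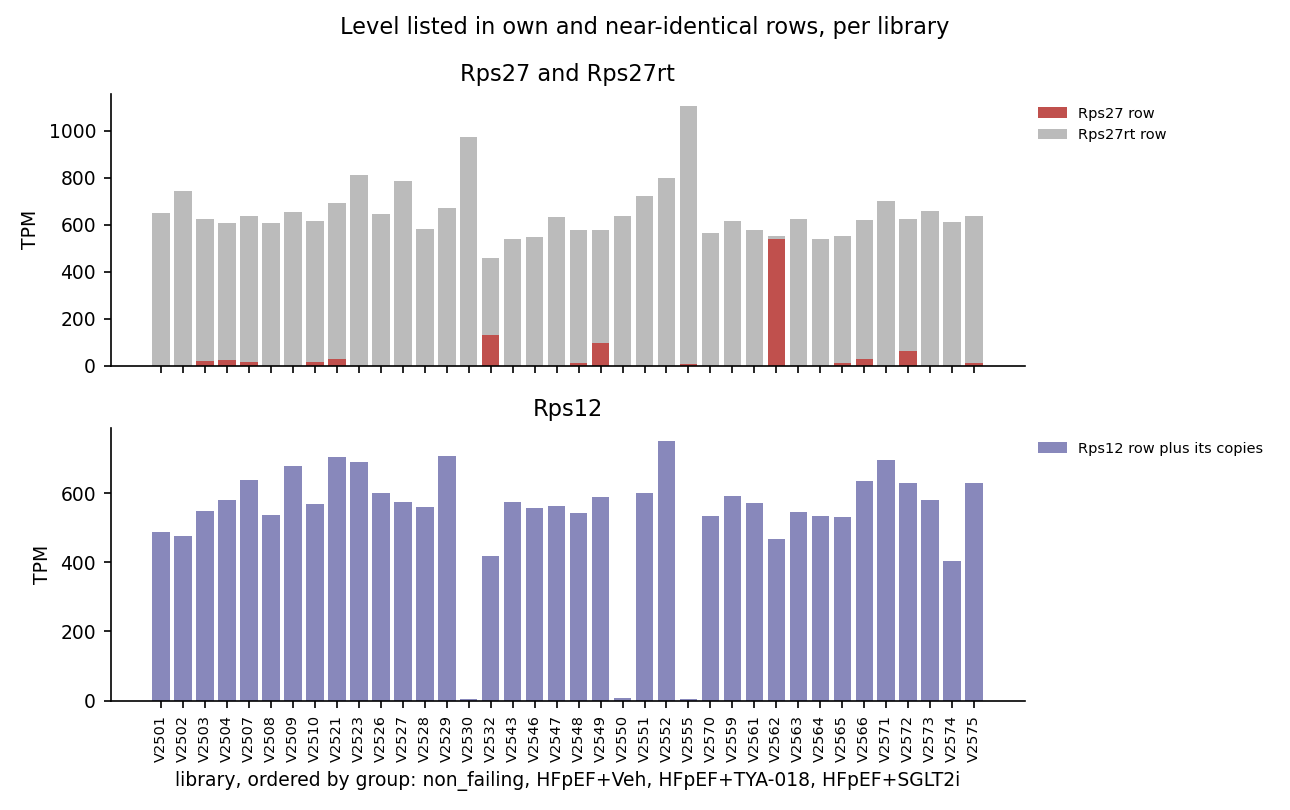
Per library, stacked TPM of Rps27 and Rps27rt (top) and TPM of Rps12 with its copies (bottom). Rps27 is at 0 in 24 of 38 libraries, and the Rps12 family is near 0 in V2530, V2555 and V2550.

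Other gene lists, mostly of translation, were set beside the ribosomal proteins. The 6 ribosomal protein genes whose names lie outside the symbol rule had medians of 0.01, 0.08, -0.09, 0.19, 0.14 and -0.11 in the 6 comparisons in the order above, with 0 called. Neither 37 initiation factors nor 16 genes of elongation, translation machinery and other abundant mRNAs had a gene called by edgeR with all libraries. The second list named Npm1, Nap1l1 and Hnrnpa1, which are not translation factors, and Npm1 is also in the assembly list below. Of all genes 0.0% to 7.39% were called per comparison. In HFpEF+SGLT2i against non_failing Eif4a1 was called lower without V2555 and Eef2 higher by limma on log2 TPM, where 6.86% and 3.75% of all genes were called. Per comparison, 2 to 7 of the initiation factors and 0 to 4 of the other list had an unadjusted p under 0.05, against 10% to 22% of all genes. In V2555 those outside the rule lay 0.55 above their group mean (6 of 6 genes), while initiation factors lay 0.22 and the elongation list 0.19 above it.

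Mitochondrial ribosomal proteins, which build the separate ribosome of the organelle, were 77 genes, all tested. In HFpEF+Veh against non_failing 12 of 77 lay above 0, with a median of -0.10, and 15 had an unadjusted p under 0.05, against 15.9% of all genes. Mrps15 was called lower there (-0.27), against 1.38% of all genes called lower. Library size alone called none and limma called Mrps34 higher, with medians of -0.02 and -0.01. These 2 settings called 3.44% and 3.11% of all genes in either direction. With TYA-018 against HFpEF+Veh, 12 of 77 were called, all higher, against 0.835% of all genes called higher (for example Mrpl55, 0.34, adjusted p = 0.0048), with a median of 0.22 and 76 above 0. Against non_failing 8 were called higher (for example Mrps34, 0.37), against 4.0% of all genes. In that comparison 2 were called higher without V2555, 1 with library size alone and 3 with limma. Of all genes 6.23%, 6.57% and 4.5% were then called in either direction. With library size alone or with limma on log2 TPM, 0 were called with TYA-018 against HFpEF+Veh, against 7.81% or 0.252% of all genes. The median was then 0.09 or 0.06, which lay 0.22 or 0.15 above that of all genes. Without V2555 5 were called, against 1.44% of all genes, with a median of 0.19. Their median with empagliflozin against HFpEF+Veh was 0.08 (-0.01 with library size alone, 0.06 above that of all genes), where that of the cytosolic members was -0.12. Between TYA-018 and empagliflozin 0 were called (0.0% of all genes were), 73 lay above 0 and the median was 0.14. At an unadjusted p under 0.05 there were 32 of 77 between the treatments, against 13.2% of all genes. With TYA-018 there were 50 against HFpEF+Veh (17.5% of all genes) and 21 against non_failing (22%). With empagliflozin there were 2 against HFpEF+Veh (10% of all genes) and 7 against non_failing (19.6%). Whether the cytosolic and mitochondrial sets differed in response was not tested.

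Of 48 genes of RNA polymerase I and ribosome assembly, Polr1e, a polymerase I subunit, was lower than in non_failing with vehicle (-0.48), with TYA-018 (-0.49) and with empagliflozin (-0.59), each called by edgeR and by limma on log2 TPM. Of all genes edgeR called 1.38%, 3.39% and 2.99% lower in these comparisons. The assembly factors Nhp2 (0.31), Pes1 (0.18) and Emg1 (0.19) were called higher and Nvl (-0.20) lower with TYA-018 against non_failing, where 4.0% of all genes were called higher and 7.39% in either direction. Without V2555 Nhp2 and Nvl were called but not Pes1 or Emg1, and limma called none of the 4. Of 16 genes of signalling to the ribosome, Mtor was called higher with TYA-018 (0.25) and with empagliflozin (0.35) against non_failing, where 4.0% and 3.46% of all genes were called higher. The call with TYA-018 was not made with library size alone or limma. Maf1, a repressor of RNA polymerase III, was called higher (0.24) and Gabpa, a factor that binds CCGGAAG, lower (-0.29) with TYA-018 against non_failing, and of these library size alone and limma called Gabpa only.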

How the data were processed

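Left ventricle RNA from 38 mice, 1 library each, was sequenced by the study with a stranded poly(A) kit. According to the labels and methods, reads were trimmed with fastp and quantified with Salmon 1.6.0 (selective alignment, bias correction), and transcript values were summed to genes. The deposited tables hold expected counts and TPM per gene, both made by the authors. The labels name a human build and the methods GENCODE M25 (GRCm38.p6), and the rows are mouse genes. The labels list female mice and the methods male mice, and sources also differ on read layout and on the length of treatment. No column was left unmapped.

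Expected counts were rounded and tested with edgeR 4.0.16 (R 4.3.3): filterByExpr, TMM scaling, 1 quasi-likelihood model of 4 groups, Benjamini-Hochberg adjustment over 13765 genes, threshold 0.05. The study itself worked on log2 TPM, which was run here as an alternative with limma 3.58.1 (pseudocount 1, genes with counts in at least 90% of libraries), beside DESeq2 1.42.0. The study first kept protein-coding genes only, left out mitochondrial genes and rescaled TPM. The limma run was not restricted to protein-coding genes, so its input differed from that of the study. CPM used the TMM sizes, with a prior count of 2 on the log2 scale. Total counts were 21.5 to 59.3 M. The p-values weigh group differences against the variation between libraries, 1 per mouse.

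Genes were named by rule: members called in a comparison (the smallest p where none was), paralog pairs, stalk and 5S particle genes, and the 3 highest, lowest, most and least variable members, 27 in all, of which 1 is not reported here. Copies were rows sharing at least 50% of their 31-base words, and at least 100 words, with a member in GENCODE M21, or named as its pseudogene. Scripts were tested on simulated counts. Members, lists and rules were chosen with earlier results of these data known.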

Additional observations from a re-analysis of the deposited data

Results flagged for a closer look

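Single libraries stood apart from the rest of their group in 7 of 58 groups of values tested with Dixon's test at its 95% level, which flags about 1 in 20 such groups by chance. The test was run in the groups of 8 mice. In V2502 of non_failing the ribosomal protein share was 2.73% of TPM, with the next library at 2.35%. In the same library Rplp1 was 1170 TPM (next 967 TPM), Rps27l was 107 TPM (next 90.5 TPM) and Rpl5 was 20.8 TPM (next 16.1 TPM), so these 4 values come from 1 mouse. In V2532 of HFpEF+Veh Rps29 was 712 TPM (next 1114 TPM) and Rpl11 was 108 TPM (next 171 TPM), both low. Rps27 was 129 TPM there (next 27.8 TPM), in the row that shares its reads with Rps27rt. The causes were not tested.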

How the results depend on the processing

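The number of members called moved with several choices. HFpEF+TYA-018 against HFpEF+Veh had 1 call (Rps2), and 0 under library size alone (Rps2 adjusted p = 0.271), limma on TPM (0.36), a length offset (0.0697), a fit of the 2 groups (0.0969), and without V2555 (0.0809), without V2555 and V2523 (0.0558) or without V2532 (0.0844). Of all genes 1.93% were called in the main fit, and 7.81%, 0.252%, 1.39%, 0.437%, 1.44%, 0.885% and 1.82% in these alternatives in that order. HFpEF+TYA-018 against non_failing had 2 calls, and 1 (Rps2, not Rplp0) under library size alone, no low-count filter, limma, the length offset, the 2-group fit, without V2555 and without both, where the adjusted p of Rplp0 ran from 0.0512 to 0.169. Of all genes 7.39% were called in the main fit, and 6.57%, 4.46%, 4.5%, 6.18%, 7.27%, 6.23% and 6.92% in these alternatives in that order. HFpEF+SGLT2i against HFpEF+Veh had 1 call without V2532 (Rpl12, with 1.27% of all genes called). HFpEF+TYA-018 against HFpEF+SGLT2i had 2 under DESeq2 (1.75% of all genes called). The mean share of 2.30, 2.62, 2.48 and 2.31% (non_failing, HFpEF+Veh, HFpEF+TYA-018, HFpEF+SGLT2i) was 3.80, 4.33, 4.13 and 3.88% without mitochondrial genes and 1.53, 1.72, 1.66 and 1.53% of expected counts. The Rpl3l to Rpl3 log2 ratio of HFpEF+TYA-018 against HFpEF+SGLT2i was 0.02, and -0.019 with counts. Leaving out V2532, adding copies and the ratio settings were chosen after seeing the data. Of 359 alternative values, 317 kept their direction and side of the threshold, 24 moved, 14 lost and 3 gained the threshold and 1 reversed, and the causes of the changes were not tested. Counting error was not separated from the spread between mice. No paired analysis was possible because the mouse numbers differ between the groups.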
